A study of Mus musculus with 21 samples.

Results

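The E protein genes Tcf3, Tcf4 and Tcf12 and the Id genes Id1, Id2 and Id3 were followed through 7 sorted populations of mouse myeloid progenitors. The 6 genes were taken by name from the 47643 genes of the deposited count table, and all 6 passed the filter on low counts that left 14801 genes for testing. RNA was sequenced from bone marrow of C57/B6 mice, with 3 libraries each of CD62L-high, CD62L-low, CD62L-neg and bulk GMPs (granulocyte-monocyte progenitors) and of CD62L-high, CD62L-low and bulk CMPs (common myeloid progenitors), 21 in all. All cells were untreated and of the same strain. In the study, which used young adult animals, both progenitors were lineage-negative, SCA-1-negative, C-KIT+ and CD34+, and CD16/32 was present on GMPs and absent on CMPs. CMPs were divided by surface CD62L into a low, a middle and a high part, and the middle part is not among these libraries. CD62L-neg GMPs were the lowest part of the GMP distribution, and CD62L-low and CD62L-high GMPs were the lower and upper ends of the remaining, mostly CD62L-positive cells. The study itself writes CD62L-neg for the CD62L-low CMPs and CD62L-int for the CD62L-low GMPs, and the labels' names are used here.

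E proteins are basic helix-loop-helix transcription factors. They pair with each other or with tissue-restricted partners such as SCL (Tal1) and bind the E-box, a short palindromic DNA motif. Id proteins carry the helix-loop-helix but not the basic region that touches DNA, so a pair of an Id protein and an E protein does not bind, and the balance of both classes sets how much E protein activity a cell has. In haematopoiesis E2A (Tcf3) is known for B cell commitment, E2-2 (Tcf4) for plasmacytoid dendritic cells, HEB (Tcf12) for thymocytes, Id2 for conventional dendritic cells and innate lymphoid cells, and Id1 and Id3 as genes induced by bone morphogenetic proteins (BMPs) through SMADs.

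Stretches of coding sequence were taken from both classes. The Id stretches were cut at the helix-loop-helix, so they cannot show the lack of a basic region. The stretches below come from GENCODE transcripts of the build mm10. In the E protein genes, capitals mark the codons of the basic region, and both alternative versions of the Tcf3 exon are shown. In the Id genes, capitals mark codons of a stretch inside the helix-loop-helix that the 3 genes share.
Tcf3 version 1: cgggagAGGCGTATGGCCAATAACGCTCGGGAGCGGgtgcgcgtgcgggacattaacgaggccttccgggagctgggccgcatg
Tcf3 version 2: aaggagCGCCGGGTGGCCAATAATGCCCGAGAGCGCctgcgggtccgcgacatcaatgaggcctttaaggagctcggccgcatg
Tcf12: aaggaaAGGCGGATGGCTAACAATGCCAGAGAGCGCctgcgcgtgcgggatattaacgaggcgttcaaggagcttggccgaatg
Id1: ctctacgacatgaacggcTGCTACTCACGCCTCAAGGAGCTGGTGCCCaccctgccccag
Id2: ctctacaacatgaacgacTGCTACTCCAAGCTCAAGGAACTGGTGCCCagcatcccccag
Id3: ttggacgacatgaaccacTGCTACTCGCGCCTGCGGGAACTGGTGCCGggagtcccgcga
The 84 bases of Tcf12 were identical to those of Tcf3 at 78.6% (version 1) and 79.8% (version 2) of positions, and both Tcf3 versions were identical to each other at 76.2%. The deposited counts are per gene, so the use of one or the other version was not measured. Over the 60 bases of the Id genes, Id1 and Id2 were identical at 83.3%, and Id3 was identical to each of them at 68.3%. The longest run of bases shared by any pair of Id transcripts was 19 bases, in Id2 and Id3.

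In mm10, Tcf3 (ENSMUSG00000020167.14) lies on the minus strand of chromosome 10 at 80409514 to 80433647 and Tcf12 (ENSMUSG00000032228.16) on the minus strand of chromosome 9 at 71842688 to 72111871. Id1 (ENSMUSG00000042745.9) lies on the plus strand of chromosome 2 at 152736251 to 152737410, Id2 (ENSMUSG00000020644.8) on the minus strand of chromosome 12 at 25093799 to 25097140, and Id3 (ENSMUSG00000007872.3) on the plus strand of chromosome 4 at 136143497 to 136145755. All 6 members are protein-coding genes, and none of their exons overlaps an exon of another annotated gene. Among the E protein genes, Tcf4 and Tcf12 share a run of 47 bases, and how reads lying within that stretch were counted was not tested.

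Since Id2 held the largest difference between CD62L fractions, its promoter was searched for E-boxes (CANNTG, both strands) and for the form CAGCTG that E protein pairs prefer. RefSeq promoter entries (GRCm38.p6, 250 bases before the start) were found for 4 of the 6 genes. The Id2 window held 1 E-box, in capitals, 196 bases before the start at chr12:25096271-25096300 on the minus strand, which is in the first intron of the longest GENCODE transcript and upstream of the others.
Id2 E-box: aatttgccacccCAGCTGggctctcgcccg
CAGCTG was present in 13.0% and any CANNTG in 66.2% of 32851 such windows, and no binding was measured. The Tcf3 window and 2 of 3 Tcf12 windows held 1 CANNTG each, and the Id3 window held none. In the Tcf12 window at chr9:72111820-72112069 the match, 240 bases before the start, was also CAGCTG. Of the other motifs searched, GGCGCC, which occurs in 9.6% of all windows, was found once and CCAAT, which occurs in 33.8%, 3 times in the Id2 window.

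Libraries held 6145834 to 15263573 counts. Of these, 22.4% to 31.7% fell on the gene models Gm23935, Gm26917 and Gm42418 in 19 libraries, 41.1% in CD62L-high GMP replicate 1 and 61.0% in bulk CMP replicate 2, and those 2 libraries stood apart from their own replicates. Levels are given as CPM, the counts scaled to library size with TMM factors. Of the sort markers, Fcgr3 (CD16) followed the labels, at 131 to 190 CPM in GMPs and 6.54 to 15.7 CPM in CMPs, as did Fcgr2b (CD32), at 40.7 to 67.0 CPM in GMPs and 8.81 to 26.6 CPM in CMPs. Ly6a (SCA-1) did not exceed 1.79 CPM, and Kit stood at 109.5 to 422 CPM. Cd34, on which all populations were sorted as positive, was uneven, at 140 to 209 CPM in GMPs and 378 to 404 in CD62L-high CMPs, 137.9, 65.0 and 46.8 in CD62L-low CMPs and 303 to 434 in bulk CMPs, so it was lower in every CD62L-low than in every other CMP library. The part of this difference in the CMP comparisons was not tested. Neither labels nor methods state that libraries of one population came from different mice, so the p-values rest on a spread between libraries that could be technical.

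**Figure D1:**
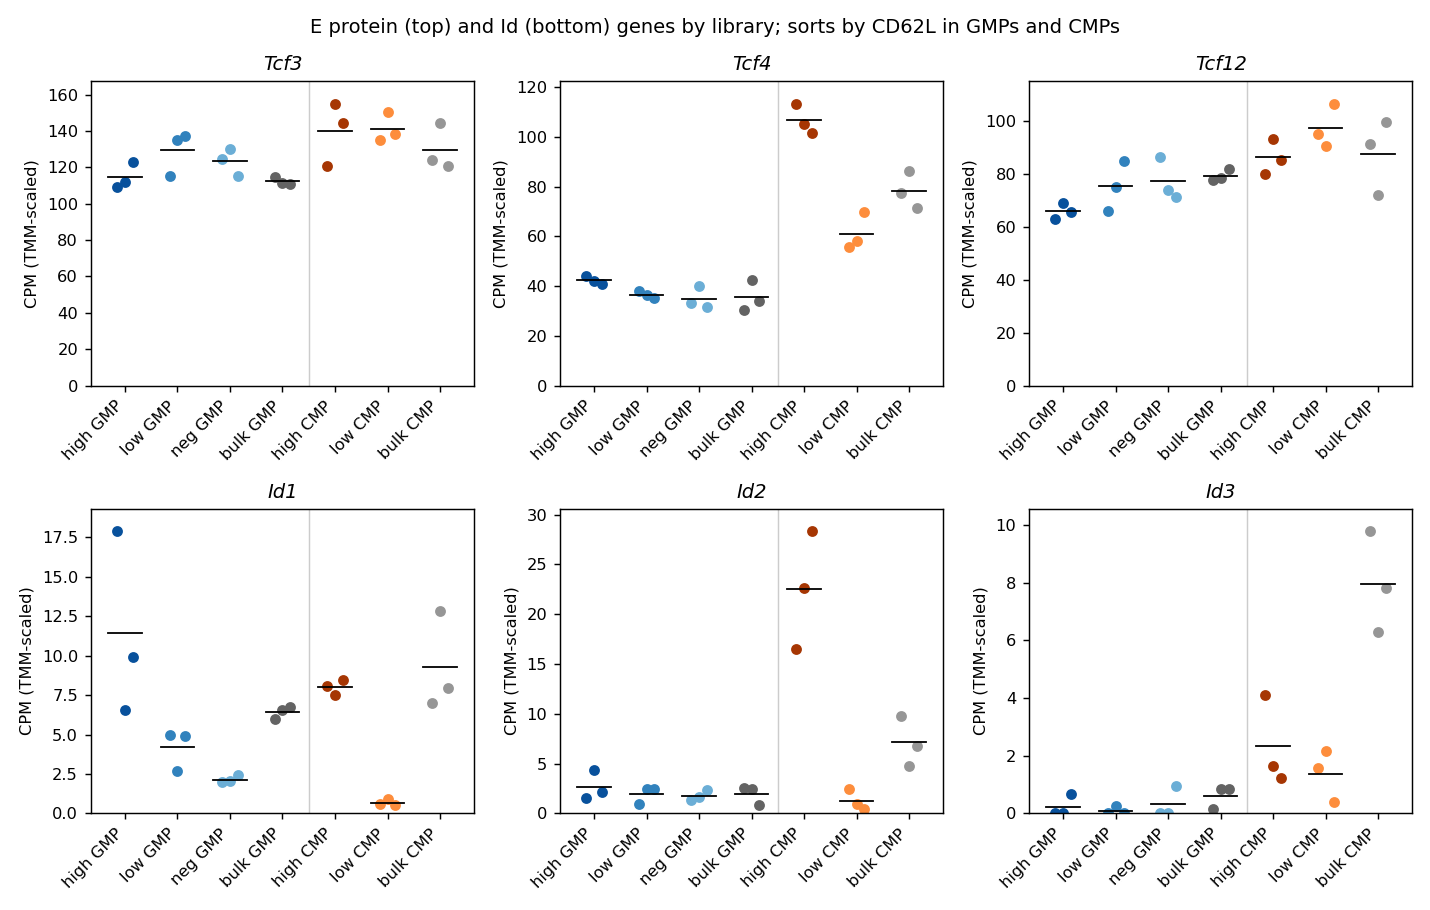
TMM-scaled CPM (vertical axes from 0) of the 3 E protein genes (top) and 3 Id genes (bottom) in each of the 21 libraries (points), by population from CD62L-high GMPs on the left to bulk CMPs on the right, with black bars at the mean of 3 libraries. Tcf3 and Tcf12 are nearly level, Tcf4 is higher in all CMP than in all GMP libraries, and Id2 peaks in CD62L-high CMPs at 16.5 to 28.3 CPM.

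The E protein genes spanned smaller folds between populations than the Id genes. A gene was called changed at an adjusted p under 0.05 (edgeR's quasi-likelihood test, Benjamini-Hochberg over all tested genes) together with a fold change over 2. Over the 8 comparisons of the design, the Id genes were called in 9 of 24 tests (Id1 in 5, Id2 in 3, Id3 in 1), and the E protein genes in 2 of 24, both of them Tcf4, where 1.22% to 12.6% of all genes were called per comparison. In these comparisons the same libraries recur, so the tests are not independent. The contrast between classes depends on the fold threshold. By edgeR's adjusted p alone, Tcf4 passed in 13 of 21 pairs of populations, Id1 in 12, Id2 in 11 and Id3 in 6. Tcf12 passed in 2 and Tcf3 in 0, and the share of all genes at that threshold is not given here. Over all 21 pairs of populations, the largest fitted fold was 1.26 for Tcf3, 1.48 for Tcf12, 3.06 for Tcf4, 16.5 for Id1, 17.8 for Id2 and, leaving out pairs with CD62L-low GMPs and their 3 pooled counts, 32.8 for Id3. The Id3 fold, of CD62L-high GMPs against bulk CMPs, rests on 10 pooled counts in CD62L-high GMPs, all from replicate 3. In these bulk samples, a lower level cannot be told apart from fewer cells that express the gene.

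Tcf3 encodes the E2A proteins E12 and E47. Its level was 109.2, 111.8 and 122.7 CPM in CD62L-high GMPs, 115.4, 135.1 and 137.4 in CD62L-low GMPs, 124.3, 129.9 and 115.4 in CD62L-neg GMPs and 114.5, 111.5 and 110.6 in bulk GMPs. In CMPs it was 120.7, 155.0 and 144.2 CPM in the CD62L-high fraction, 134.8, 150.6 and 138.2 in the CD62L-low fraction and 124.2, 144.1 and 120.5 in bulk. The ranges of GMPs and CMPs overlapped, and 0 of the 21 pairs of populations passed an edgeR adjusted p of 0.05 (4 had an unadjusted p under 0.05), nor did any of the 8 comparisons by DESeq2. Between CD62L-high and CD62L-low CMPs the log2 fold change was -0.01 ± 0.13 (SE), with a 95% confidence interval of -0.28 to 0.25. Between bulk GMPs and bulk CMPs it was -0.21 ± 0.13, with an interval of -0.47 to 0.06, which leaves out a change of 2-fold in either direction.

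Tcf12, which encodes HEB, behaved much like Tcf3. It ranged over 62.8 to 69.0 CPM in CD62L-high GMPs, 65.8 to 84.9 in CD62L-low GMPs, 71.2 to 86.3 in CD62L-neg GMPs and 77.4 to 81.9 in bulk GMPs. CD62L-high CMPs held 80.0 to 93.2 CPM, CD62L-low CMPs 90.3 to 106.4 and bulk CMPs 71.8 to 99.6, where the lowest value belonged to replicate 2, the library with the most counts in 3 gene models. No neighbours in the order of means, from CD62L-low CMPs (97.2) to CD62L-high GMPs (65.8), differed. Populations farther apart did: Tcf12 was lower in CD62L-high GMPs than in CD62L-low CMPs (log2 fold change -0.56 ± 0.14, edgeR adjusted p = 0.00328) and than in bulk CMPs (-0.42 ± 0.14, edgeR adjusted p = 0.0314), both under 2-fold.

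Tcf4 (ENSMUSG00000053477.16), the gene of E2-2 on the plus strand of chromosome 18 at 69343356 to 69689079 (mm10), was the E protein gene that separated the progenitors. CD62L-high GMPs held 44.0, 41.9 and 41.0 CPM, CD62L-low GMPs 38.0, 36.6 and 35.3, CD62L-neg GMPs 33.2, 40.0 and 31.5, and bulk GMPs 30.3, 42.6 and 33.9. CD62L-high CMPs held 113.4, 105.3 and 101.6 CPM, CD62L-low CMPs 55.6, 58.1 and 69.8, and bulk CMPs 77.3, 86.4 and 71.6. Every GMP library lay below every CMP library, and within CMPs the 3 populations did not overlap either. Tcf4 fell by 1.14 ± 0.15 on the log2 scale in bulk GMPs against bulk CMPs (edgeR adjusted p = 6.76e-06) and by 1.33 ± 0.15 in CD62L-high GMPs against CD62L-high CMPs (edgeR adjusted p = 8.77e-07). In CD62L-neg GMPs it was lower than in CD62L-low CMPs by a log2 fold change of -0.81 ± 0.15 (edgeR adjusted p = 0.000251), which is 1.75-fold and so was not called.

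Within CMPs, Tcf4 was higher in the CD62L-high than in the CD62L-low fraction, with a log2 fold change of 0.80 ± 0.15 (edgeR adjusted p = 0.000259), again 1.75-fold. Within GMPs, the log2 fold change between the CD62L-high and CD62L-neg fractions was 0.28 ± 0.15 with an interval of -0.03 to 0.58 and did not pass the test. The difference between both CD62L effects, -0.53 ± 0.21, missed the threshold as well (edgeR adjusted p = 0.14). Along the order of levels, only CD62L-low CMPs and CD62L-high GMPs differed among neighbours (edgeR adjusted p = 0.00716).

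Id1 divided both progenitors by CD62L. CD62L-high CMPs held 8.06, 7.49 and 8.47 CPM, against 0.605, 0.894 and 0.541 CPM in CD62L-low CMPs, which are 5, 7 and 4 counts. The ranges were far apart, and the log2 fold change was 3.54 ± 0.45 (11.6-fold, edgeR adjusted p = 2.07e-06). CD62L-high GMPs held 17.9, 6.53 and 9.91 CPM, CD62L-low GMPs 4.97, 2.70 and 4.92, and CD62L-neg GMPs 1.99, 2.04 and 2.40. The 3 GMP fractions did not overlap. Id1 was 5.31-fold higher in CD62L-high than in CD62L-neg GMPs (log2 fold change 2.41 ± 0.38, edgeR adjusted p = 5.38e-05), and 2.71-fold higher than in CD62L-low GMPs (1.44 ± 0.36, edgeR adjusted p = 0.0364). The step between CD62L-low and CD62L-neg GMPs, 0.97 ± 0.38, did not pass (edgeR adjusted p = 0.153). The call between CD62L-high and CD62L-low GMPs was lost without CD62L-high GMP replicate 1, which held the highest Id1 level of all 21 libraries and 41.1% of counts in 3 gene models (log2 fold change 0.96, edgeR adjusted p = 0.313), and also without any of 10 other libraries.

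CD62L-neg GMPs stood between the other sorted ends for Id1. They held more than CD62L-low CMPs (log2 fold change 1.64 ± 0.46, edgeR adjusted p = 0.0121), although this call was lost without CD62L-low CMP replicate 3 (1.50, edgeR adjusted p = 0.056). They held less than bulk GMPs, at 5.98, 6.56 and 6.73 CPM (log2 fold change -1.58 ± 0.38, edgeR adjusted p = 0.00959). Between whole progenitors the gene did not move detectably: bulk CMPs held 6.97, 12.9 and 7.96 CPM, and the log2 fold change of bulk GMPs against them was -0.50 ± 0.36 with an interval of -1.25 to 0.25. CD62L-high GMPs and CD62L-high CMPs overlapped too (0.51 ± 0.35, edgeR adjusted p = 0.413). The CD62L effect on Id1 was not shown to differ between GMPs and CMPs (-1.13 ± 0.58, edgeR adjusted p = 0.297).

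Monocyte markers moved with Id1 over these fractions. The summed level of the 6 monocyte markers, all detected in every population, was 1530 to 1815 CPM in CD62L-high GMPs, 885 to 957 in CD62L-low GMPs and 71.2 to 80.6 in CD62L-neg GMPs, and it was 1113 to 1354 CPM in CD62L-high CMPs against 29.9 to 56.6 CPM in CD62L-low CMPs. The 6 megakaryocyte markers ran the other way, at 14.4 to 20.96 CPM in CD62L-high CMPs against 639 to 755 CPM in CD62L-low CMPs. The 5 basophil and mast cell markers were at 630 to 1115 CPM in CD62L-neg GMPs, against 2.54 to 3.63 CPM in CD62L-high GMPs, where Cpa3 and Fcer1a were at 0. In bulk CMPs the monocyte sum was 438 to 571 CPM, below CD62L-high CMPs, while Id1 overlapped between both. In bulk GMPs the monocyte sum was 992 to 1029 CPM. Irf8 is among the 6 monocyte markers and also among the dendritic cell genes described below. The part of cell composition in the Id1 differences was not tested.

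Id2 peaked in CD62L-high CMPs. CD62L-high CMPs held 16.5, 22.7 and 28.3 CPM (209, 357 and 458 counts), against 2.42, 0.894 and 0.406 CPM (20, 7 and 3 counts) in CD62L-low CMPs. Every CD62L-high library exceeded every CD62L-low library, and the log2 fold change was 4.15 ± 0.58 (17.8-fold, edgeR adjusted p = 9.12e-06). Bulk CMPs lay between, at 9.78, 4.78 and 6.79 CPM, below CD62L-high CMPs (CD62L-high against bulk CMPs 1.64 ± 0.50, edgeR adjusted p = 0.0452) and above CD62L-low CMPs (CD62L-low against bulk CMPs -2.51 ± 0.57, edgeR adjusted p = 0.0051).

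In GMPs Id2 was low in every fraction. CD62L-high GMPs held 1.55, 4.38 and 2.14 CPM, CD62L-low GMPs 0.939, 2.44 and 2.49, CD62L-neg GMPs 1.30, 1.65 and 2.32, and bulk GMPs 2.58, 2.47 and 0.841. All 4 overlapped, and CD62L-high against CD62L-neg GMPs gave a log2 fold change of 0.61 ± 0.53, with an interval of -0.48 to 1.71. The CD62L effect on Id2 differed by its own test: it was smaller in GMPs than in CMPs by -3.54 ± 0.77 on the log2 scale (95% confidence interval -5.14 to -1.93, edgeR adjusted p = 0.00454). Id2 fell by 3.06 ± 0.52 on the log2 scale in CD62L-high GMPs against CD62L-high CMPs (8.33-fold, edgeR adjusted p = 0.000236), and by 1.88 ± 0.53 in bulk GMPs against bulk CMPs (3.67-fold, edgeR adjusted p = 0.0135). The bulk comparison lost its call without bulk CMP replicate 1 (edgeR adjusted p = 0.0609) or bulk GMP replicate 3 (0.0806). CD62L-neg GMPs and CD62L-low CMPs were both near the floor and overlapped (0.48 ± 0.59).

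Conventional dendritic cell markers were highest in CD62L-high CMPs, where Id2 and Tcf4 were also highest. The summed level of 6 such genes was 88.1 to 169 CPM in CD62L-high CMPs, 15.95 to 23.7 in CD62L-low CMPs and 43.4 to 66.2 in bulk CMPs. In GMPs it was 7.409 to 11.01 CPM in bulk, 8.414 to 15.4 in CD62L-neg and 10.1 to 10.87 in CD62L-low GMPs. CD62L-low CMPs lay above these GMP populations in every library. They overlapped CD62L-high GMPs, at 5.471 to 28.06 CPM, whereas Tcf4 was higher in CD62L-low CMPs than in all GMP libraries. In CD62L-high CMPs all 6 were detected. Their largest component, the class II gene H2-Ab1, averaged 112 CPM there and 16.2 CPM in CD62L-low CMPs, Clec9a 10.8 and 0.081 CPM, and Batf3 had 131 counts there and none in CD62L-low CMPs. The 8 plasmacytoid markers were at 17.0 to 37.8 CPM in CD62L-high CMPs and 8.79 to 22.8 in CD62L-low CMPs, with Klk1 at 0 in both. CD62L-high GMPs held 10.4 to 18.1 CPM of them, and the other GMP populations lay within that range. The 8 T, NK and innate lymphoid markers ran against Id2 within CMPs. Their sum was 7.67 to 12 CPM in CD62L-high, 38.2 to 42.9 in CD62L-low and 28.8 to 36.2 in bulk CMPs. It was 68.3 to 84.1 CPM in CD62L-neg GMPs and 3.02 to 10.9 in CD62L-high GMPs. The part of these cells in the Id2 and Tcf4 results was not tested.

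Id3 had few or no counts in GMPs and its highest levels in bulk CMPs. In GMPs, 6 of 12 libraries held no count, which allows up to 0.197 to 0.245 CPM in them, and the others held 2, 11 and 11 counts in bulk, 12 in CD62L-neg, 3 in CD62L-low and 10 in CD62L-high GMPs. Bulk CMPs held 9.78, 6.28 and 7.83 CPM (73, 21 and 60 counts), CD62L-high CMPs 4.11, 1.65 and 1.24 (52, 26 and 20 counts), and CD62L-low CMPs 1.57, 2.17 and 0.406 (13, 17 and 3 counts). Id3 fell by 3.68 ± 1.22 on the log2 scale in bulk GMPs against bulk CMPs (edgeR adjusted p = 0.0346), and this call was lost without any one of bulk CMP replicates 1 and 3 and of the 3 bulk GMP libraries (edgeR adjusted p of 0.0558 to 0.129). CD62L-high GMPs, with 0.223 CPM on average, did not pass against CD62L-high CMPs, with 2.33 CPM (-3.26 ± 1.26, edgeR adjusted p = 0.101). Among GMP fractions the counts do not carry a fitted change: pooled over libraries, CD62L-low GMPs had 3 counts and CD62L-neg GMPs 12, a ratio of 0.23 with a counting interval of 0.0416 to 0.852 that covers counting error only.

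Within CMPs, Id3 had its highest mean in bulk and Id2 in the CD62L-high fraction. The Id1 mean was also highest in bulk, with 12.9 CPM in replicate 2 and 6.97 and 7.96 CPM in replicates 1 and 3. It overlapped CD62L-high CMPs, at 7.49 to 8.47 CPM (CD62L-high against bulk CMPs -0.19 ± 0.36, edgeR adjusted p = 0.802). For Id3, bulk CMPs exceeded both sorted fractions in every library, yet neither difference passed the test (edgeR adjusted p = 0.356 against CD62L-high and 0.195 against CD62L-low CMPs). CD62L-high and CD62L-low CMPs overlapped (log2 fold change 0.74 ± 1.12). Immediate early genes, which are induced within minutes of stress or stimulation, were high in bulk and CD62L-low CMPs: the sum of 12 such genes, a list made after values were seen, was 1744 to 3351 CPM in the GMP fractions, 2742 to 2830 in bulk GMPs, 2372 to 2818 in CD62L-high CMPs, 5364 to 6629 in CD62L-low CMPs and 5652 to 8406 in bulk CMPs, where the highest value was that of replicate 2, the library with 61.0% of counts in 3 gene models, and the others were 5679 and 5652. Its part in the Id3 levels was not tested. Id4, the remaining Id gene, had no count in 19 libraries and 8 and 2 counts in replicate 3 of CD62L-low and CD62L-high CMPs.

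**Figure D2:**
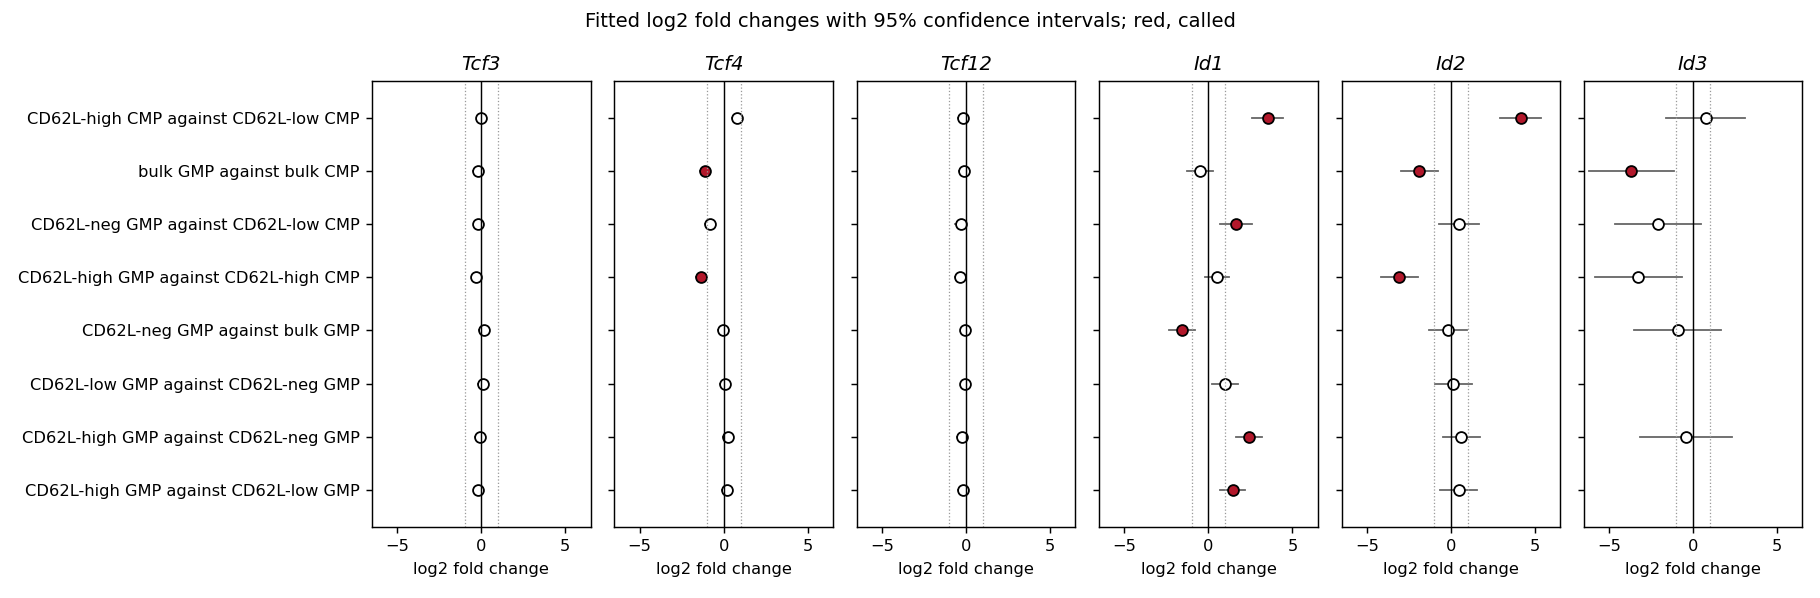
Fitted log2 fold changes (horizontal axes) of each gene in the 8 comparisons (rows, first-named population over second), with 95% confidence intervals that for the E protein genes are mostly narrower than the points. Filled red points passed both thresholds, dotted lines mark 2-fold, and Id3 is left out where a population had 3 counts. Red points stand in Tcf4 (2), Id1 (5), Id2 (3) and Id3 (1).

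Set against all tested genes, the members called by comparison were as follows. Between CD62L-high and CD62L-low CMPs, 2 of 6 were called, Id1 and Id2, where 10.5% of all genes were called. Between bulk GMPs and bulk CMPs 3 of 6 were called, all lower, where 11.5% of all genes were called and 7.3% were called lower. One member was called between CD62L-neg GMPs and CD62L-low CMPs (12.6% of all genes), and 2, both lower, between CD62L-high GMPs and CD62L-high CMPs (7.64%, and 5.11% lower). Within GMPs, Id1 was the only member called: between CD62L-neg and bulk GMPs (4.07% of all genes), CD62L-high and CD62L-neg GMPs (10.5%) and CD62L-high and CD62L-low GMPs (1.22%). Between CD62L-low and CD62L-neg GMPs no member was called by edgeR (4.32% of all genes), nor by DESeq2, and 1 member, Id1, had an unadjusted p under 0.05. The difference between CD62L effects was called for 1 member, Id2, and for 7.35% of all genes.

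The share of Id transcripts in the family followed from these levels. Dividing CPM by the merged exon length of each gene, the Id genes made up 28.4% ± 2.41 (SD, n = 3) of the summed level of all 6 genes in CD62L-high CMPs, 4.11% ± 1.90 in CD62L-low CMPs and 27.4% ± 0.862 in bulk CMPs. In GMPs the share was 24.1% ± 7.79 in the CD62L-high, 10.5% ± 2.12 in the CD62L-low and 7.01% ± 2.08 in the CD62L-neg fraction, and 16.4% ± 0.902 in bulk. The libraries of CD62L-high CMPs, at 25.7% to 30.4%, and of CD62L-low CMPs, at 1.93% to 5.45%, did not overlap, nor did those of CD62L-high GMPs, at 18.1% to 32.9%, and CD62L-neg GMPs, at 5.65% to 9.41%. With the median length of coding transcripts, which for Tcf4 is 1.841 kb against 27.382 kb of merged exons, the shares were 15.7% in CD62L-high CMPs, 2.13% in CD62L-low CMPs, 12.4% in CD62L-high GMPs and 3.72% in CD62L-neg GMPs, so the order held and the size depended on the length chosen. Per merged exon length Tcf3 was the most abundant E protein gene in every population (27.8 to 35.0 CPM per kb on average), whereas per coding transcript Tcf4 exceeded it in CD62L-high CMPs (58.0 against 49.4 CPM per kb).

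**Figure D3:**
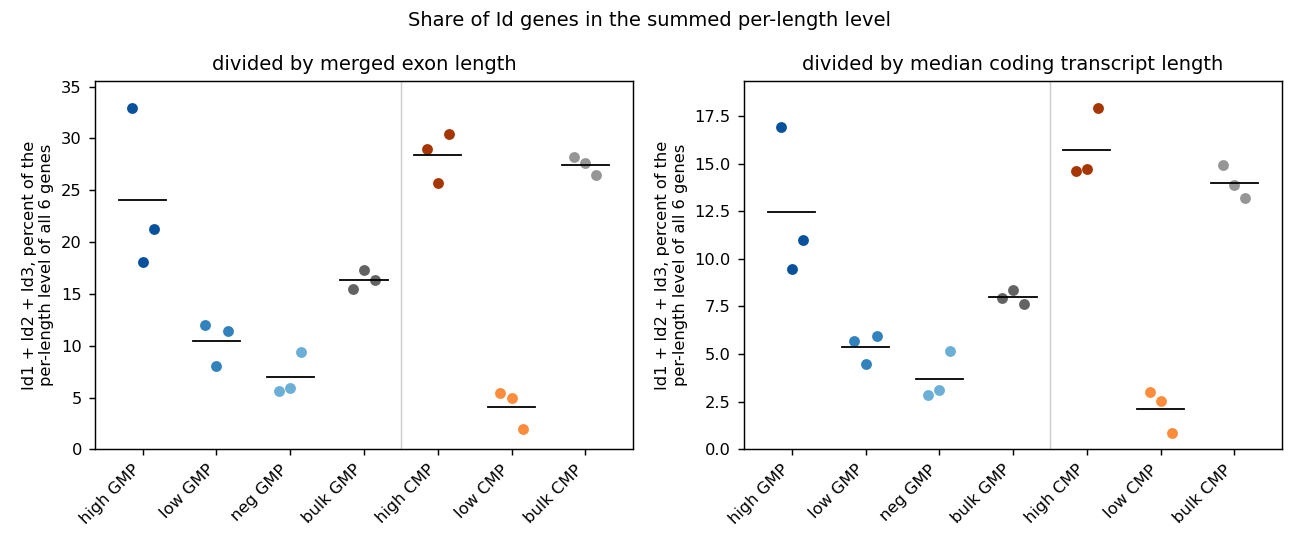
Share of Id1, Id2 and Id3 in the summed per-length level of all 6 genes (percent, axes from 0), per library (points) and population mean (bars), with CPM divided by merged exon length (left) or by median coding transcript length (right). On the left, CD62L-high CMPs sit at 25.7% to 30.4% and CD62L-low CMPs at 1.93% to 5.45%.

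Genes whose population means ran most like each member were sought among 7666 genes, by Pearson's r over 7 population means of log2(CPM + 1). Tcf4 ran most like Cmah (r = 0.998), Zbtb46 (0.994) and Snn (0.99). Zbtb46 encodes a transcription factor of conventional dendritic cells. Id2 ran much like Ifi207 (0.996) and Ciita (0.988), the transactivator of class II genes. Id1 ran most like Sh2b3 (0.994), which encodes the adaptor LNK, Laptm5 (0.988) and Slc43a2 (0.988), and Id3 like March9 (0.997), Midn (0.99) and Nr4a3 (0.988). Tcf12 ran like Itsn1 (0.992), Arid4b (0.98) and Cul7 (0.979), and Tcf3 like Herc3 (0.962), Xlr4a (0.959) and Kif21a (0.948). Over the 21 libraries r was lower for each of these genes, from 0.469 (Tcf3 and Kif21a) to 0.948 (Id1 and Sh2b3). With only 7 points that share libraries, the values over population means are a description. Between members, r was highest for Tcf4 and Id2 (0.83), Tcf4 and Id3 (0.78), Tcf3 and Tcf12 (0.76) and Tcf3 and Tcf4 (0.7). It was 0.58 for Id1 and Id2 and lowest for Tcf12 and Id1 (-0.51).

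Genes that E2-2 and Id2 are known to act with in dendritic cells were called often in some comparisons of CD62L fractions and not in others. The share of all genes called differed too. It was 10.5% in CD62L-high against CD62L-low CMPs and in CD62L-high against CD62L-neg GMPs. Between CD62L-neg and bulk GMPs it was 4.07%, between CD62L-low and CD62L-neg GMPs 4.32%, and between CD62L-high and CD62L-low GMPs 1.22%. Of 11 dendritic cell genes tested, 7 rose and 1 fell in CD62L-high against CD62L-low CMPs, with a median log2 fold change of 1.64 against 0.01 over all genes. Irf8, which drives monocyte and dendritic cell fates, held 739, 597 and 596 CPM in CD62L-high CMPs, against 24.5, 7.41 and 6.76 CPM in CD62L-low CMPs (log2 fold change 5.63 ± 0.36, edgeR adjusted p = 5.51e-11). Batf3, needed for cross-presenting dendritic cells, was at least 23.0-fold higher, measured against a floor of 3 pooled counts. Bcl11a, which sustains E2-2 expression in plasmacytoid cells, ran the other way (-1.30 ± 0.16). Within GMPs, 5 of the 11 rose and 1 fell in CD62L-high against CD62L-neg GMPs (median 1.15, or 0.33 with genes at 0 set to their bound, against -0.04 over all genes), led by Irf8 (5.31 ± 0.35) and Tlr9 (5.22 ± 0.88). Between CD62L-neg and bulk GMPs 4 fell, led again by Irf8 and Tlr9 (-4.60 ± 0.33 and -3.17 ± 0.88), and between CD62L-low and CD62L-neg GMPs 3 rose. Between CD62L-high and CD62L-low GMPs 0 of 11 were called by edgeR (median 0.25), and 4 had an unadjusted p under 0.05.

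Between progenitors this network showed both directions. In bulk GMPs against bulk CMPs, Nfil3, a transcription factor upstream of Id2, rose (1.12 ± 0.23) while Runx2 (-1.88 ± 0.24) and Irf7 (-1.67 ± 0.51) were among 3 that fell. In CD62L-high GMPs against CD62L-high CMPs, Cebpb rose (1.76 ± 0.22), and 3 fell, among them Runx2 (-1.72 ± 0.24) and Siglech, at least 25.5-fold lower with no count in 3 libraries of CD62L-high GMPs. Zeb2, a repressor of Id2 in dendritic cells, overlapped between CD62L-high and CD62L-low CMPs (-0.09 ± 0.13) and was lower in CD62L-neg GMPs (216, 203 and 231 CPM) than in bulk GMPs (466, 435 and 501 CPM, log2 fold change -1.11 ± 0.13, edgeR adjusted p = 2.88e-06), and its CD62L effect differed between GMPs and CMPs (1.23 ± 0.18, edgeR adjusted p = 6.13e-05).

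Lymphoid genes known as E protein targets were mostly too low to test: 8 of 13 did not pass the filter, among them Rag1, Ebf1, Pax5, Igll1, Vpreb1 and Ptcra. Of the 5 tested, 3 rose in CD62L-high against CD62L-low CMPs. Dntt, the terminal transferase, held 159, 37.2 and 44.7 CPM there, against 23.7, 1.53 and 0.27 CPM in CD62L-low CMPs, with the higher replicate 1 in both (log2 fold change 3.22 ± 0.79, edgeR adjusted p = 0.00594). Rag2, of the recombinase, rose as well at low levels (1.75 against 0.081 CPM on average). In CD62L-high GMPs against CD62L-high CMPs 3 fell: Dntt was at least 1010-fold and Il7r at least 41.7-fold lower, since neither had a count in CD62L-high GMPs. In bulk GMPs against bulk CMPs 2 fell, Dntt (-8.45 ± 1.26) and Foxo1 (-2.24 ± 0.40). Notch1 was the lymphoid gene that rose in CD62L-high against CD62L-neg GMPs (157 against 69.6 CPM on average, 1.17 ± 0.27), and 1 of the 5 fell.

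Of 5 partners of the E proteins tested, 1 rose and 2 fell in CD62L-high against CD62L-low CMPs (median -0.66), and 1 fell in bulk GMPs against bulk CMPs. Tal1, the erythroid and megakaryocyte partner, held 22.5, 31.2 and 41.4 CPM in CD62L-high CMPs, against 113, 114 and 123 CPM in CD62L-low CMPs (log2 fold change -1.87 ± 0.26, edgeR adjusted p = 7.71e-06), and was lower in bulk GMPs than in bulk CMPs (-1.74 ± 0.26) and in CD62L-high than in CD62L-neg GMPs (-1.64 ± 0.27). Of the other partners, Tcf15 was at least 44.9-fold lower and Bhlha15 higher (3.45 ± 0.83) in CD62L-high CMPs. Of 9 cofactors of the LMO-LDB1 and ETO type, 1 rose, 2 fell and 6 were not called in CD62L-high against CD62L-low CMPs (median -0.44), and 2 fell in bulk GMPs against bulk CMPs. Lmo1 rose in CD62L-high against CD62L-low CMPs (12.6 against 0.396 CPM on average, 4.99 ± 0.40) and in CD62L-high against CD62L-neg GMPs (1.97 ± 0.28). Lmo4 ran the other way in both (-1.24 ± 0.20 and -1.82 ± 0.20), and the ETO-family gene Cbfa2t3 fell in CD62L-high against CD62L-low CMPs (-1.06 ± 0.19) and in bulk GMPs against bulk CMPs (-1.53 ± 0.20).

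**Figure D4:**
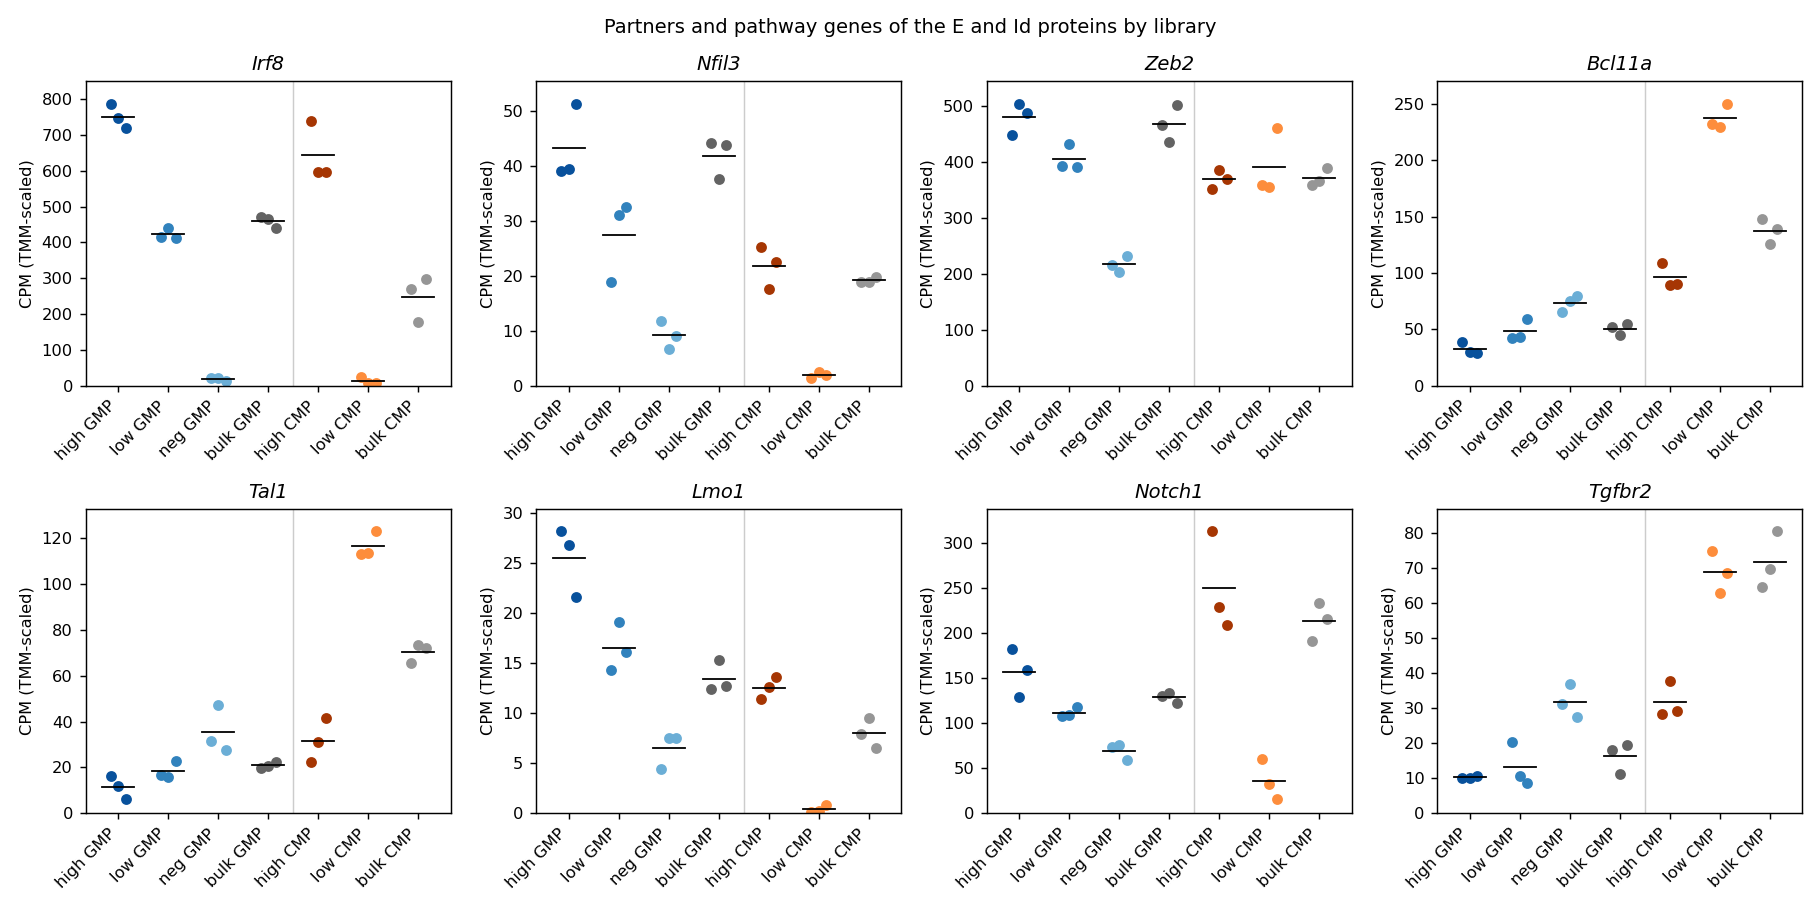
TMM-scaled CPM (vertical axes from 0) of 8 partner and pathway genes in each of the 21 libraries (points), by population, with black bars at the mean of 3 libraries. Irf8, Nfil3, Lmo1 and Notch1 have their lowest means in CD62L-low CMPs, and Bcl11a, Tal1 and Tgfbr2 are higher in CD62L-low than in CD62L-high CMPs.

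In the BMP and TGF-beta pathway, whose BMP arm induces Id genes in many cells, 16 of 22 genes were tested. The ligand genes Bmp2, Bmp4 and Bmp6 did not pass the filter. In CD62L-high against CD62L-low CMPs, where Id1 and Id2 rose, 2 receptors rose: Acvrl1 held 3.95, 3.68 and 5.57 CPM against no count in 3 libraries, at least 34.8-fold higher, and Acvr1 averaged 6.89 and 2.09 CPM (1.72 ± 0.55, edgeR adjusted p = 0.0318). Tgfbr2 fell (-1.11 ± 0.24). The median over the 16 was 0.03, against 0.01 over all genes. Acvrl1 also rose in CD62L-high against CD62L-neg GMPs (3.34 ± 1.08, edgeR adjusted p = 0.0369), where 1 other gene of the 16 fell (median 0.37). In bulk GMPs against bulk CMPs 3 fell and none rose: Smad7, an inhibitory SMAD that the pathway induces (19.5, 21.6 and 19.0 CPM against 73.8, 150 and 87.7 CPM, -2.37 ± 0.22), Tgfbr2 (-2.14 ± 0.25) and the co-receptor gene Eng. The median was -0.76 there, against 0.00 over all genes. None of the 9 genes of Id and E protein turnover, such as ubiquitin ligases and deubiquitinases, was called by edgeR in the 8 comparisons, and 21 of these 72 tests had an unadjusted p under 0.05. Fzr1, an activator of the anaphase-promoting complex, was called for the difference between CD62L effects (1.20 ± 0.28, edgeR adjusted p = 0.00775).

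Of 4 other E-box repressors tested, 2 fell in CD62L-high GMPs against CD62L-high CMPs, 0 were called by edgeR in CD62L-neg GMPs against CD62L-low CMPs (median -0.66, with 2 at an unadjusted p under 0.05), and 3 fell in bulk GMPs against bulk CMPs, led by Hes1 (0.077 against 2.39 CPM on average) and Zeb1 (-1.62 ± 0.34). Zeb1 was 6.18 CPM on average in CD62L-high GMPs, against 34.9 CPM in CD62L-high CMPs (-2.48 ± 0.35), and against 34.9 CPM in CD62L-neg GMPs (-2.48 ± 0.35). Bhlhe40 was lower in CD62L-high than in CD62L-low GMPs (2.13 against 5.98 CPM, -1.50 ± 0.35, edgeR adjusted p = 0.0255). Hes6 was the gene of this list that rose in CD62L-high against CD62L-low CMPs (1.33 ± 0.21).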

How the data were processed

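RNA of 21 libraries, 3 for each of 7 sorted populations, was sequenced, and groups were taken from the sample titles. Libraries were made with a SMARTer stranded kit according to the labels, and with SMART-Seq v.4 according to the paper. Per the submitters' processing notes, the authors used bcl2fastq, Trim Galore, HISAT2 on mm10 and HTSeq, with no versions, and deposited whole, unscaled counts per gene. The strand setting of the counting is not given in the sources used here. The study excluded 1 bulk CMP sample for low mapping without naming it, and all 3 deposited ones were used here. Of 47643 identifiers, 47224 had a symbol in GENCODE vM21, and the others held at most 0.0856% of a library. Exon lengths, overlaps and coding stretches come from that release, which may differ from the one used for counting. Depth was 6145834 to 15263573 counts a library.

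In R 4.3.3 with edgeR 4.0.16, all libraries were fitted together with 1 mean a population, after filterByExpr and TMM scaling. No covariates were used, and comparisons were made with the quasi-likelihood F test. Benjamini-Hochberg adjustment ran over 14801 genes, and SE were derived from the F statistic. Calls required a fold over 2 beside an adjusted p under 0.05, and the difference between CD62L effects at the adjusted p alone. Fold changes of genes with 1 to 3 pooled counts are given as ratios with a 95% counting interval, and those of genes at 0 as bounds against 3 pooled counts. Chi-square tests found no replicate pair within sampling noise. The methods were tested on simulated data. Alternatives were DESeq2 1.42.0, its size factors, no filter on low counts, a fit of only the populations compared, no gene models Gm23935, Gm26917 and Gm42418, a replicate block and each library left out, and, chosen after seeing the data, leaving out both libraries rich in those gene models.

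Members and lists were chosen with earlier results of these data known. Named were the 6 members, of each list the called genes with the largest fold, at most 2 a direction and comparison, and for likeness the 3 genes with the highest r among those with an SD of at least 0.25 over the 7 means. A few genes that this rule or the sort check would name are not reported here. Genes named outside this rule, namely sort and cell type markers, Eng, genes that did not pass the filter and the pair Zeb2 and Notch1 in the plots of levels, were chosen after their values were seen.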

Additional observations from a re-analysis of the deposited data

Results flagged for a closer look

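The CD62L effect on Id2 differed between GMPs and CMPs by a test of the difference itself, an interaction term in the edgeR fit. The log2 fold change of CD62L-high against CD62L-neg GMPs was lower than that of CD62L-high against CD62L-low CMPs by -3.54 ± 0.77 (adjusted p = 0.00454). Id2 stood at 1.55 to 4.38 CPM in CD62L-high GMPs and 1.30 to 2.32 CPM in CD62L-neg GMPs, and at 16.5 to 28.3 CPM in CD62L-high CMPs and 0.406 to 2.42 CPM in CD62L-low CMPs. Over the alternatives the adjusted p was 1.3e-05 to 0.0189. The low ends of both sorts are not the same cut of the CD62L distribution, so the effects compared are of sorts that differ in width.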

How the results depend on the processing

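The counts of called members were the same under DESeq2's size factors in edgeR, without the 3 gene models and without the filter on low counts, except that Id3 was additionally called in CD62L-high GMPs against CD62L-high CMPs without the filter (-3.25, adjusted p = 0.0087) and by DESeq2 (-3.35, adjusted p = 0.0341). When only the populations compared were fitted, no member (0) was called between CD62L-neg GMPs and CD62L-low CMPs (Id1 1.63, adjusted p = 0.0877) or between CD62L-high and CD62L-low GMPs (0, Id1 1.41, adjusted p = 0.164), Id2 lost its call between bulk GMPs and bulk CMPs (-1.91, adjusted p = 0.0559), and 1 member did not pass the filter in 4 of these fits. Replicate numbers gave no clear sign of pairing, since same-numbered libraries correlated by -0.07 to 0.06 in their deviations from the population means. Taken over all tested genes, such a correlation could miss a pairing, so pairing was not excluded. With the replicate block, 0 members were called between CD62L-high and CD62L-low GMPs (Id1 1.43, adjusted p = 0.0576), and no other call of a member changed. Without both libraries that stand apart, 0 members were called between CD62L-high and CD62L-low GMPs (Id1 0.96, adjusted p = 0.186), and Id3, not called, stood at 0.09 between CD62L-high and CD62L-neg GMPs. The cause of these changes was not tested. With single libraries left out, the members called were 1 to 3 between bulk GMPs and bulk CMPs (1 without bulk CMP replicate 1 or bulk GMP replicate 3), 0 to 2 between CD62L-neg GMPs and CD62L-low CMPs (0 without CD62L-low CMP replicate 3, 2 without CD62L-neg GMP replicate 3, where Id3 reached -7.04), 2 to 3 between CD62L-high GMPs and CD62L-high CMPs (3 without CD62L-high GMP replicate 3, where Id3 reached -7.76) and 0 to 1 between CD62L-high and CD62L-low GMPs (0 in 11 of 21 fits). Log2 fold changes that changed sign when single libraries were left out, none of them called, ranged from -0.09 to 0.08 for Tcf3 between CD62L-high and CD62L-low CMPs, and between CD62L-neg and bulk GMPs from -0.14 to 0.12 for Tcf4, -0.13 to 0.01 for Tcf12 and -0.53 to 0.08 for Id2. Between CD62L-low and CD62L-neg GMPs they ranged from -0.12 to 0.07 for Tcf12, -0.07 to 0.50 for Id2 and -4.94 to 3.03 for Id3. Id3 ranged from -4.92 to 4.51 between CD62L-high and CD62L-neg GMPs and from -3.02 to 4.51 between CD62L-high and CD62L-low GMPs, where Id2 ranged from -0.09 to 0.74. For the difference between CD62L effects Tcf12 ranged from -0.12 to 0.03 and Id3 from -5.66 to 3.77. Over all genes, 180 were called between CD62L-high and CD62L-low GMPs, against 324 without the filter, 307 by DESeq2 and 71 in the fit of only those populations. For the difference between CD62L effects 1088 were called, against 1742 without bulk CMP replicate 2 and 1814 without both libraries that stand apart. Depth limits Id3 in GMPs most, where libraries held 0 to 12 counts.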
